A study of Mus musculus with 26 samples.

Results

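The 7 genes described here encode receptors that lead lymphocytes to the gut and other mucosal surfaces. They are the chemokine receptor genes Ccr9, Ccr6 and Ccr10, the chemokine-type receptor gene Gpr15, and the integrin chain genes Itga4, Itgb7 and Itgae. They were chosen by gene symbol, without use of measured values, and all 7 were found among the 21761 genes of each of 2 deposited count tables. The tables hold RNA sequencing read counts of 26 libraries of mouse CD4+ T cells from spleen and lymph nodes, from a study of vitamin C and of the TET enzymes, which oxidise methylated cytosine, in regulatory T (Treg) cells. All animals were of the C57BL/6 background and carried Foxp3-eGFP, a reporter of Foxp3, the transcription factor that defines Treg cells. In the first table, Foxp3-eGFP reporter mice of 5 to 6 weeks gave naive CD4+eGFP-CD25-CD62LhiCD44lo cells (n = 2) and 5 kinds of culture grown from naive cells. The cultures were Th0 cells activated with anti-CD3/CD28 (n = 2) and induced Treg (iTreg) cells made with TGFβ alone, with TGFβ and vitamin C, with TGFβ and retinoic acid (RA), or with all 3 (n = 2 each). The labels give no doses, and do not say whether these iTreg cultures were sorted for Foxp3. The same table held CD4+eGFP+ Treg cells sorted at 3 weeks from Tet2fl/fl Tet3fl/fl mice that carried CD4-Cre and Foxp3-eGFP (Tet2/3-deficient, n = 4) and from Tet2fl/fl Tet3fl/fl mice with Foxp3-eGFP and no Cre (control, n = 4). CD4-Cre is active in developing T cells at large, so deletion in these mice is not limited to Treg cells. A second, separately deposited table came from Foxp3-eGFP mice of 12 to 14 weeks, with TGFβ iTreg cells sorted as Foxp3-positive on day 6 (n = 3) and Foxp3-negative cells sorted from anti-CD3/CD28 restimulated TGFβ iTreg cells, on day 6 of the restimulation (n = 3).

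Lymphocytes leave the blood where their chemokine receptors and integrins match what the vessel wall and tissue display. CCR9 follows CCL25, which is made by the epithelium of the small intestine, and CCR6 follows CCL20, which is made near Peyer's patches and at inflamed surfaces. GPR15 guides T cells to the large intestine, and CCR10 follows CCL27 in skin and CCL28 at mucosal surfaces. ITGA4 and ITGB7 pair into the integrin α4β7, which holds MAdCAM-1 on gut vessels, while ITGAE (CD103) pairs with ITGB7 into αEβ7, which binds E-cadherin on epithelial cells. RA is known for imprinting gut homing on activated T cells by inducing CCR9 and α4β7, and TGFβ for inducing CD103 and GPR15.

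The DNA upstream of 4 of these genes is shown because they moved with RA or vitamin C in the cultures described below and had a matched window. The windows are the 250 bases before an annotated start in RefSeq on build GRCm38.p6, of which 6 matched 5 of the 7 genes. They are written 5′ to 3′ on the strand of the gene, and motif matches are in capitals. The motifs were chosen after the sequences were seen, and both strands were searched.
Ccr9, chr9:123766961-123767210, + strand: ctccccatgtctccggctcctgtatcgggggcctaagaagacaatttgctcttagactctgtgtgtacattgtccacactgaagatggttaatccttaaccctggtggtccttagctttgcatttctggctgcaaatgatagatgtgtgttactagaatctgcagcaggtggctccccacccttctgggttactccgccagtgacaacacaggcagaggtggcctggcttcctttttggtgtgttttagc
Ccr6, the upstream start, chr17:8235793-8236042, + strand: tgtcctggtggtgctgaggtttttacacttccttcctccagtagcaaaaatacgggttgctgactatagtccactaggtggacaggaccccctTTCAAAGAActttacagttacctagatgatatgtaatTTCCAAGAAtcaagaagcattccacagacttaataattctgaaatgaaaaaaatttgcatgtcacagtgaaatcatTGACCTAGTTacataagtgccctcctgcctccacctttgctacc
Gpr15, chr16:58718873-58719122, - strand: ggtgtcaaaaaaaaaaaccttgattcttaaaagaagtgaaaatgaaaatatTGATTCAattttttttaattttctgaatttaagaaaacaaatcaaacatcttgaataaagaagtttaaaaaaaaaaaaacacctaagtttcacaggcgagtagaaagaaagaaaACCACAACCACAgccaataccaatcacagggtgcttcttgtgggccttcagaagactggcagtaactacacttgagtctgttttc
Itga4, chr2:79255176-79255425, + strand: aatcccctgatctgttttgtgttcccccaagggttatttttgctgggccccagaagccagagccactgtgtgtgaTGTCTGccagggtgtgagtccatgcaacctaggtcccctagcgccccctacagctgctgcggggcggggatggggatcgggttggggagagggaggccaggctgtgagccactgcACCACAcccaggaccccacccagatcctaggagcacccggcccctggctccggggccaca
In the Ccr6 window the capitals nearest the gene mark the ROR response element, which is AGGTCA with an A/T-rich run before it, read on the opposite strand from -44 to -35 counted back from the start. This motif was found in 58 of 32851 RefSeq promoters of the same length (0.177%). The 2 motifs overlap here, and AGGTCA alone, the core that nuclear receptors bind, was found in 14.0% of promoters. The other 2 capital runs of Ccr6 match the STAT motif TTCNNNGAA, found in 7.02% of promoters. The Gpr15 window holds the RUNX motif TGTGGT, found in 14.0% of promoters, at 2 adjacent places on the opposite strand (-85 to -80 and -79 to -74). It also holds TGATTCA at -199 to -193. These letters match TGANTCA, a loose form of the AP-1 motif that was found in 6.75% of promoters. Any base may stand at N, so this pattern is wider than the AP-1 motif. In the Itga4 window the capitals mark 1 RUNX match (-60 to -55) and 1 match to the SMAD motif CAGACA (-175 to -170, found in 17.1% of promoters), both on the opposite strand. The Ccr9 window held none of the 7 motifs searched, which also included the AHR core GCGTG (28.2% of promoters), and neither did the Itgb7 window nor the other annotated Ccr6 start (chr17:8242276-8242525, + strand). A match describes letters in the window and not a bound site.

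Total counts per library ranged from 9647669 to 17672302 in the first table and from 11293704 to 17219805 in the second. Levels below are CPM, the reads of a gene scaled to a common library total, and levels of different genes are compared only as FPKM, which also divides by exon length. A gene is called where the Benjamini-Hochberg adjusted p of edgeR's quasi-likelihood test was under 0.05, and changes are log2 fold changes ± SE. Foxp3 was at 540 to 973 CPM in the iTreg cultures, 542 to 737 CPM in the ex vivo Treg libraries and 15.5 to 26.3 CPM in naive and Th0 libraries, and it fell from 302 to 338 CPM at day 6 to 13.5 to 17.8 CPM in the restimulated Foxp3-negative cells. Tet2 was at 12.0 to 16.5 CPM in the Tet2/3-deficient libraries and 9.96 to 15.7 CPM in controls, and Tet3 at 96.3 to 114 CPM against 126 to 172 CPM. Counts over whole genes cannot show the loss of a floxed exon, so the deletion rests on the labels. CD4 T cell markers were detected in every group (5 of 5 genes measured). The labels do not say that replicates came from separate animals or cultures, so each p-value measures the spread between these libraries. In bulk RNA, fewer cells of a type and less RNA per cell cannot be told apart.

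The 7 genes did not share one profile across the study. Itgb7 was high and nearly level everywhere, Itga4 was lowest in Th0 and day 6 iTreg cells, and the 4 chemokine-type receptors and Itgae had few or no reads in some groups and clear levels in others.

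**Figure D1:**
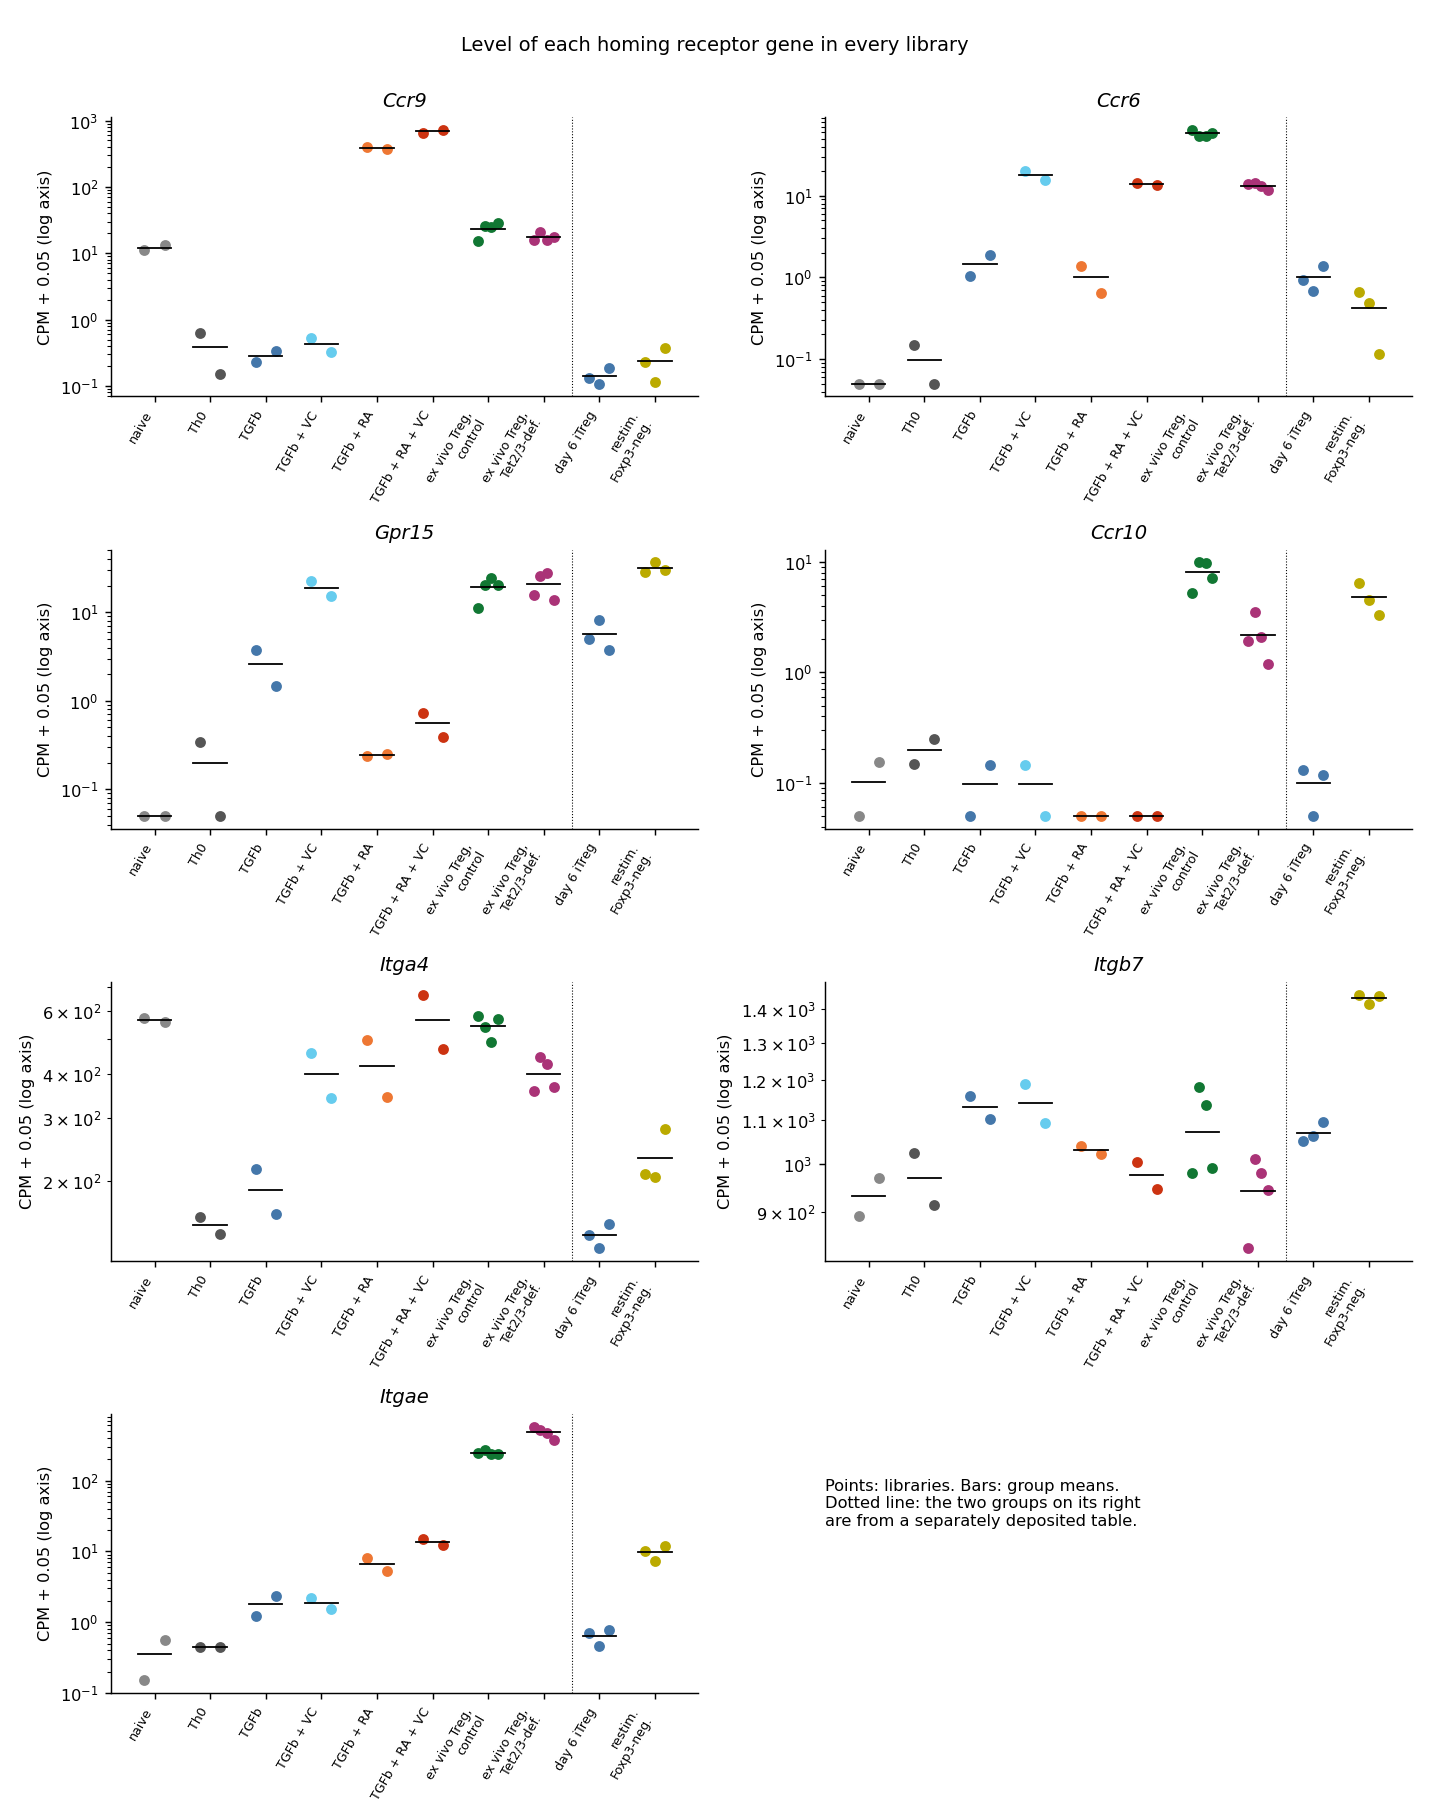
Level of each of the 7 genes in every library (points; CPM plus 0.05 on a log axis whose range differs between panels) with group means as bars, and the restimulation table to the right of the dotted line. Ccr9 stands highest in the RA cultures (371 to 717 CPM), Itgae in the ex vivo Treg cells (239 to 574 CPM), and Itgb7 stays between 832 and 1444 CPM in every library.

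Per length, Itgb7 had the highest FPKM of the 7 in naive cells (348), in RA iTreg cells (385) and in control ex vivo Treg cells (401 ± 38.1, SD, n = 4). In control ex vivo Treg cells the FPKM order continued with Itgae (54.3 ± 2.80), Itga4 (42.3 ± 3.13), Ccr6 (27.8 ± 2.14), Gpr15 (14.8 ± 4.31), Ccr10 (4.64 ± 1.33) and Ccr9 (2.42 ± 0.578). This order depends on the listed exon lengths, of 9718 bases for Ccr9, 2080 for Ccr6, 1725 for Ccr10 and 1290 for Gpr15. Over the control group Ccr9 had 1494 reads, more than Gpr15 (1207) or Ccr10 (504), so its last place rests on its listed length. In RA iTreg cells Ccr9 (39.8 FPKM) and Itga4 (32.6 FPKM) came next after Itgb7, ahead of Itgae (1.44), Ccr6 (0.462) and Gpr15 (0.151), and no Ccr10 read was counted. Thus the most abundant chemokine-type receptor transcript was Ccr6 in control ex vivo Treg cells and Ccr9 in RA cultures, an order that was not tested.

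Adding RA to TGFβ raised Ccr9 from a few reads to one of the higher levels measured for any of these receptors. Ccr9 was counted at 2 and 3 reads (0.182 and 0.286 CPM) in the TGFβ libraries and at 4258 and 3706 reads (402 and 371 CPM) in the TGFβ and RA libraries. The RA libraries also stood above every library grown without RA and above all 8 ex vivo Treg libraries, whose highest value was 28.0 CPM. The log2 fold change was 10.61 ± 0.22 (SE; edgeR quasi-likelihood test, adjusted p = 1.15e-13). Itgae, the αE chain, rose as well, by 1.91 ± 0.35 (adjusted p = 0.00157, edgeR), from 1.19 and 2.29 CPM to 7.94 and 5.21 CPM. Its level in RA iTreg cells was far below the ex vivo Treg libraries, of which the lowest was at 239 CPM. Haspin, a kinase gene listed as Gsg2, lies within Itgae in the RefSeq annotation. It was at 29.3 to 57.5 CPM in the cultures and lowest there with both supplements. With TGFβ alone Haspin was at 46.2 to 51.2 CPM and with RA at 33.5 to 36.0 CPM. In Th0 libraries Haspin was at 55.8 to 57.5 CPM, while Itgae was at 0.390 and 0.397 CPM. The counting strand is not given in the sources used here, and how reads were assigned between the pair was not tested. Itga4 rose from 216 and 161 CPM to 497 and 343 CPM (1.14 ± 0.25, adjusted p = 0.0161, edgeR). Its partner Itgb7 stayed at 1158 and 1102 CPM without RA and 1039 and 1021 CPM with it (-0.15 ± 0.08, adjusted p = 0.256, edgeR). Gpr15, the large intestine receptor, went the other way. It was counted at 41 and 15 reads (3.74 and 1.43 CPM) with TGFβ alone and at 2 reads in each RA library (0.189 and 0.200 CPM), without overlap, and fell by 3.67 ± 0.77 on the log2 scale (adjusted p = 0.00573, edgeR). Ccr6 was at 1.00 and 1.81 CPM without RA and 1.32 and 0.601 CPM with it, ranges that overlap, and did not pass (-0.53 ± 0.47, adjusted p = 0.486, edgeR). In all, 3 of the 6 members tested rose and 1 fell, where 16.5% of the 11287 genes tested were called (7.19% higher and 9.29% lower). Ccr10, with no more than 2 reads in any naive or cultured library of this table, was too low for the test.

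Some of these calls were lost when 1 library was left out, which leaves its group with 1. Without RA replicate 1 the calls of Gpr15 (log2 fold change -3.65, adjusted p = 0.0648, edgeR) and Itga4 (0.83, 0.144) were lost, which left 2 members called, although the Gpr15 change was close to that with all libraries (-3.67). Gpr15 was also lost without TGFβ replicate 1 (-2.82, 0.0583) and Itga4 without TGFβ replicate 2 (0.93, 0.111). Of the genes listed as responding to RA, 4 of 8 tested rose and 1 fell (median log2 fold change 0.39, all genes 0.02). Cyp26b1, which encodes an RA-degrading enzyme, had no read with TGFβ alone and was at 52.8 CPM with RA, Dhrs3, a retinal reductase gene, rose by 3.56 ± 0.35 (adjusted p = 7.71e-06, edgeR), and Hic1, a transcriptional repressor gene, by 2.56 ± 0.22 (2.8e-06). Among 22 other homing receptors tested, 3 rose and 8 fell (median -0.32). Cxcr5, the receptor that leads cells to B cell follicles, rose by 3.03 ± 0.25 (1.93e-06), and Ccr8, found on skin-homing T cells, fell by 1.66 ± 0.25 (0.000501, edgeR). Of the selectin ligand enzymes, Fut7 (-3.10 ± 0.18, adjusted p = 2.74e-08) and Fut4 (-2.09 ± 0.16, 1.93e-06), fucosyltransferase genes used for homing to skin and inflamed vessels, fell and B4galt1 rose (0.31 ± 0.09, 0.0279, edgeR) among 8 tested.

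Adding vitamin C to TGFβ moved a different set of receptors from RA. Ccr6 was at 20.1 and 15.3 CPM with vitamin C and 1.00 and 1.81 CPM without. Both vitamin C libraries lay above both TGFβ libraries by several fold (3.63 ± 0.30, adjusted p = 3.47e-06, edgeR). Gpr15 stood at 22.7 and 15.1 CPM with vitamin C, also above both TGFβ libraries (2.83 ± 0.36, adjusted p = 0.000323, edgeR). Itga4 rose to 457 and 342 CPM (1.06 ± 0.25, adjusted p = 0.024, edgeR), close to its level with RA (497 and 343 CPM). The Itga4 call was lost with no filter on low counts (adjusted p = 0.0622, edgeR). It was also lost in some fits that leave 1 library in a group, although Itga4 stayed higher with vitamin C in them. The log2 fold change was 1.29 without TGFβ replicate 1, 0.86 without TGFβ replicate 2 and 0.82 without vitamin C replicate 1. Replicate 1 had the higher Itga4 with TGFβ alone (216 and 161 CPM) and with vitamin C. Both vitamin C libraries lay above both TGFβ libraries. Ccr9, at 5 and 3 reads with vitamin C against 2 and 3 without (0.63 ± 0.72, adjusted p = 0.607), Itgae (0.05 ± 0.42, 0.948) and Itgb7 (-0.01 ± 0.08, 0.948, edgeR) did not pass. The intervals were wide for the low genes, with a 95% interval of -0.91 to 2.17 for Ccr9 and -0.85 to 0.95 for Itgae, against -0.19 to 0.17 for Itgb7. Thus 3 of 6 members tested rose and none fell, where 16.8% of genes were called (8.84% higher and 7.99% lower).

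The direct comparison of the vitamin C with the RA cultures separated the receptors, with 2 of 6 higher and 2 lower, where 16.1% of genes were called (9.22% higher and 6.91% lower). Ccr6 (4.16 ± 0.32, adjusted p = 5.28e-07) and Gpr15 (6.50 ± 0.57, 3.96e-06, edgeR) were higher with vitamin C. Ccr9 (-9.98 ± 0.21, adjusted p = 1.22e-13) and Itgae (-1.86 ± 0.34, 0.00144, edgeR) were lower. Itga4 did not pass (-0.08 ± 0.25, 95% interval -0.65 to 0.48, adjusted p = 0.872, edgeR), nor did Itgb7 (0.13 ± 0.08, 0.308).

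Transcription factors reported to regulate these receptors were followed in the same cultures. With vitamin C, 4 of 26 tested rose and 2 fell (median 0.12, all genes about 0). Maf, a c-MAF gene of Treg and helper cells, rose by 2.51 ± 0.34 (adjusted p = 0.00056, edgeR), and Ahr, the aryl hydrocarbon receptor gene, by 1.13 ± 0.23 (0.00516). Runx2 rose by 1.15 ± 0.31 (0.0209). Rora, which encodes a nuclear receptor that binds the element printed in capitals upstream of Ccr6, was chosen for mention after its values were seen. It was at 4.16 to 4.53 CPM with vitamin C and 1.33 to 2.55 CPM without (1.123 ± 0.37, adjusted p = 0.0501, edgeR). With both supplements Rora was at 1.20 to 2.60 CPM, overlapping TGFβ alone (-0.09 ± 0.42, adjusted p = 0.891, edgeR), while Ccr6 rose there. After restimulation Rora rose from a mean of 2.44 to 5.58 CPM (1.124 ± 0.18, 4.26e-05), while the Ccr6 means were 0.953 and 0.375 CPM. Ccr6 had too few reads after restimulation and at day 6 to enter the test. No relation between Rora and Ccr6 was tested. With RA, Runx2 (1.48 ± 0.30, adjusted p = 0.00356) and Ahr (0.96 ± 0.24, 0.0126) rose and Rxra fell (-0.67 ± 0.14, 0.00359, edgeR) among 3 that rose and 4 that fell. Runx3, reported to act in CD103 expression, was among those that fell (-0.38 ± 0.09, adjusted p = 0.00609, edgeR). Itgae rose in the same comparison, and no relation between Runx3 and Itgae was tested.

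With both supplements the cultures carried Ccr9 and Ccr6 together. Ccr9 was at 658 and 717 CPM with TGFβ, RA and vitamin C against 402 and 371 CPM with TGFβ and RA, without overlap. Vitamin C thus raised Ccr9 in the presence of RA by 0.81 ± 0.10 on the log2 scale (adjusted p = 0.000149, edgeR). Ccr6 was at 14.3 and 13.6 CPM with both and 1.32 and 0.601 CPM with RA alone (3.81 ± 0.33, adjusted p = 6.88e-06, edgeR). Itgae reached 15 and 12.1 CPM with both, above 7.94 and 5.21 CPM with RA alone (1.02 ± 0.27, adjusted p = 0.0278, edgeR). That call was lost with DESeq2 (adjusted p = 0.115), with limma on log2(FPKM + 0.1) (0.118), without RA replicate 2 (0.225) and without replicate 1 of both supplements (0.179). Gpr15 stayed low, at 7 and 4 reads with both against 2 and 2 with RA alone, and did not pass (1.29 ± 1.08, 95% interval -1.05 to 3.63, adjusted p = 0.555, edgeR). Itga4 (0.42 ± 0.25, 0.39) and Itgb7 (-0.10 ± 0.08, 0.566) did not pass. In this comparison 3 of 6 members tested rose, where 7.54% of genes were called (4.31% higher and 3.22% lower).

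Read the other way, RA added to vitamin C cultures raised Ccr9 by 10.79 ± 0.21 (adjusted p = 3.26e-14, edgeR) and Itgae by 2.88 ± 0.32 (1.55e-05). Gpr15 dropped from 22.7 and 15.1 CPM to 0.673 and 0.344 CPM, a fall of 5.21 ± 0.48 (adjusted p = 7.65e-06, edgeR). Ccr6, Itga4 and Itgb7 did not pass (adjusted p = 0.326, 0.238 and 0.0755, edgeR), so that 2 of 6 rose and 1 fell, where 15.1% of genes were called (5.81% higher and 9.3% lower).

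**Figure D2:**
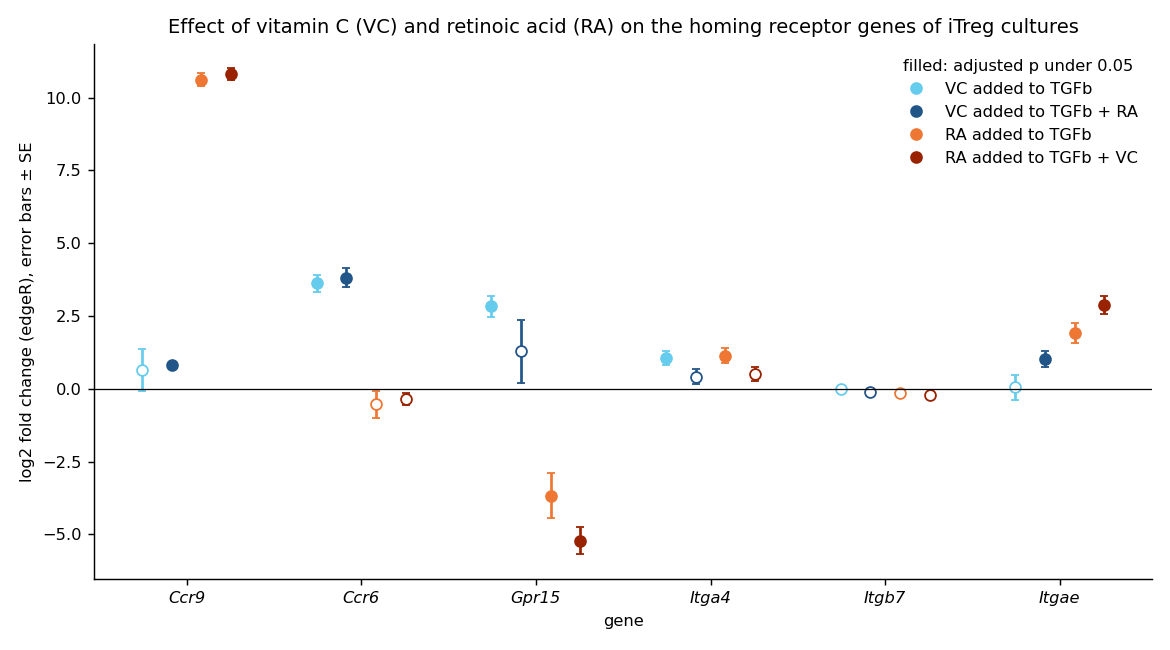
Log2 fold changes with SE for the 6 members tested (x axis) when vitamin C (VC) or retinoic acid (RA) was added to TGFβ cultures, with and without the other supplement (n = 2 libraries per group, edgeR; filled points passed). Ccr9 moved with RA in both settings (10.61 and 10.79), Ccr6 with vitamin C in both (3.63 and 3.81), Gpr15 fell with RA in both (-3.67 and -5.21), and Itgb7 stayed within 0.23 of 0.

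Against TGFβ alone, cultures with both supplements had higher Ccr9 (11.42 ± 0.22, adjusted p = 3.11e-14, edgeR), Ccr6 (3.28 ± 0.30, 2.14e-06), Itgae (2.93 ± 0.32, 6.9e-06) and Itga4 (1.56 ± 0.25, 0.00156). Gpr15 (-2.38 ± 0.62, adjusted p = 0.00913) and Itgb7 (-0.24 ± 0.08, 0.032, edgeR) were lower, so that all 6 members tested were called, where 37.5% of genes were (18.3% higher and 19.2% lower). The Itgb7 call was lost with limma at either pseudocount (adjusted p = 0.0622 and 0.0636) and without TGFβ replicate 1 (0.172), TGFβ replicate 2 (0.0579) or replicate 2 of both supplements (0.187, edgeR). The Gpr15 call was lost without TGFβ replicate 1 (0.123) or replicate 2 of both supplements (0.0727).

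Whether the effect of vitamin C differed with RA was tested by the interaction term. None of the 6 members tested was called by edgeR, and none had an unadjusted p under 0.05, while 2 genes of 11287 were called (0.0177%, both lower). The intervals of the difference were wide, from -1.74 to 2.1 for Ccr9, -0.91 to 1.28 for Ccr6 and -4.52 to 1.44 for Gpr15 on the log2 scale, against -0.33 to 0.16 for Itgb7. With limma on log2(FPKM + 1), Gpr15 alone passed (-2.15, adjusted p = 0.0438), and DESeq2 called no member. So a vitamin C effect on Gpr15 that passed without RA and did not pass with RA is not shown by edgeR to differ.

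Levels of other cell types' markers were read in the same cultures. The 6 B cell markers summed to 3.05 to 3.47 CPM with TGFβ alone, 4.52 to 6.80 CPM with vitamin C, 5.81 to 6.05 CPM with RA and 11.6 to 14.6 CPM with both, mostly from Cd79b. Of the 2 tested, 1 rose with RA and 1 with both against TGFβ alone. Ms4a1, Pax5 and Cd22 had no read in any Th0 or iTreg library of the first table, and the myeloid genes Csf1r and Cd14 had none in naive or cultured libraries. The pair of CD8 markers summed to 23.3 to 28.2 CPM with vitamin C, 13.2 to 15.4 CPM with TGFβ alone, 11.02 to 11.6 CPM with RA and 39.0 to 42.1 CPM with both. The 5 NK and innate lymphoid markers summed to 7.08 to 8.22, 29.7 to 30.3, 55.3 to 70.0 and 11.3 to 13.1 CPM in the same order, mostly from Kit, with Ncr1 and Klrb1c at 0. The 3 erythroid markers measured summed to 17.9 to 26.6, 36.3 to 45.4, 0.850 to 3.50 and 1.25 to 2.23 CPM. Foxp3 also rose with vitamin C (0.75 ± 0.09, adjusted p = 9.73e-05) and with RA (0.32 ± 0.09, 0.0262, edgeR). The 5 immature thymocyte markers summed to 7.39 to 10.3 CPM with TGFβ alone, 12.7 to 15.5 CPM with vitamin C, 25.1 to 26.7 CPM with RA and 36.2 to 42.3 CPM with both, mostly from Dntt and Cd1d1, with Rag1 at 0. Of the 2 tested, 1 rose with RA and both rose with the 2 supplements together. The part of these in the receptor results was not tested.

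Activation without TGFβ went with less Ccr9 and less Itga4. Naive libraries had Ccr9 at 11.1 and 13.2 CPM, and Th0 libraries at 0.585 and 0.0993 CPM. The naive level was above every culture without RA (-5.12 ± 0.31 for Th0 against naive, adjusted p = 1.09e-09, edgeR). Itga4 fell from 573 and 557 CPM to 158 and 142 CPM (-1.94 ± 0.26, adjusted p = 0.000128, edgeR). Itgb7 did not pass (0.03 ± 0.08, 95% interval -0.15 to 0.20, adjusted p = 0.779, edgeR), with 893 and 970.1 CPM in naive cells and 1024 and 913 CPM in Th0 cells. Ccr6 and Gpr15 had no read in either naive library, where 3 reads over both libraries would be 0.153 CPM, and had 1 and 3 reads in all in Th0 cells. In this comparison 2 of 6 members tested were called, both lower, while 72% of all genes were called (35.7% higher and 36.4% lower).

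TGFβ iTreg cells had low levels of Ccr6, Gpr15 and Itgae that Th0 cells lacked or nearly lacked. Ccr6 was counted at 11 and 19 reads with TGFβ against 1 read over both Th0 libraries, a CPM ratio of 28.4 (exact 95% counting interval 4.72 to 1159; adjusted p = 0.00231, edgeR). Gpr15 was counted at 41 and 15 reads against 3 over both Th0 libraries, a ratio of 17.7 (5.75 to 88.3; adjusted p = 0.00365, edgeR). These intervals cover counting error alone. Itgae, a textbook target of TGFβ, was at 1.19 and 2.29 CPM against 0.390 and 0.397 CPM (2.07 ± 0.59, adjusted p = 0.0184, edgeR). The Itgae call was lost with limma on log2(FPKM + 1) (adjusted p = 0.0904), without TGFβ replicate 2 (0.15) and without Th0 replicate 1 (0.106) or 2 (0.0871, edgeR). Ccr9, Itga4 and Itgb7 did not pass (adjusted p = 0.624, 0.419 and 0.1, edgeR), so that 3 of 6 rose, where 26.1% of genes were called (14.5% higher and 11.6% lower). Among TGFβ response genes 9 of 19 tested rose and 1 fell (median 0.38, all genes about 0), with Id1, an inhibitor of helix-loop-helix factors, up by 3.07 ± 0.24 (3.43e-07) and Skil, a feedback inhibitor of SMAD signalling, by 2.13 ± 0.13 (2.39e-08). Maf (4.80 ± 0.83, adjusted p = 0.00139, edgeR) and Rora (1.80 ± 0.54, 0.0241) were among 8 of 26 regulators that rose.

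Control Treg cells sorted ex vivo carried most of these receptors at levels that TGFβ iTreg cells did not have. Ccr6 was at 63.5, 54.5, 54.0 and 59.2 CPM in the 4 control libraries, and Itgae at 247, 267, 239 and 239.5 CPM. Each of these libraries was above every iTreg library for both genes. Ccr10 was at 5.16, 9.87, 9.83 and 7.12 CPM, against at most 2 reads in any naive or cultured library of that table. Against TGFβ iTreg cells, 6 of 7 members were higher, where 61.4% of genes were called (32.3% higher and 29.1% lower). The changes were 7.12 ± 0.19 for Itgae (adjusted p = 2.73e-09, edgeR), 6.56 ± 0.44 for Ccr9 (1.74e-06), 5.31 ± 0.20 for Ccr6 (1.92e-08), 2.83 ± 0.48 for Gpr15 (0.00217) and 1.48 ± 0.13 for Itga4 (5.45e-06). Ccr10, with 1 read in the TGFβ libraries, had a CPM ratio of 173 (exact 95% counting interval 30.8 to 6832; adjusted p = 1.34e-05, edgeR). Itgb7 did not pass (-0.12 ± 0.10, 95% interval -0.34 to 0.10, adjusted p = 0.32). These groups also differ in the age and genotype of the mice and in culture, which cannot be told apart. Markers of other cells were higher as well. The B cell markers summed to 45.9 to 111 CPM in control Treg, 3.05 to 3.47 CPM in TGFβ iTreg and 2.12 to 2.90 CPM in naive libraries, with 6 of 6 higher against either group. Plasma cell markers were higher in 3 of 3 tested against either group, at 2.51 to 5.80 CPM against 0.274 to 0.477 CPM in TGFβ iTreg and 0.201 to 0.311 CPM in naive libraries. Myeloid markers were higher than in TGFβ iTreg cells in 4 of 5 tested, at 35.2 to 43.7 against 5.38 to 8.87 CPM, and against naive cells 2 of 5 were higher and 2 lower. Their part in the receptor results was not tested.

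Supplemented iTreg cultures sat close to the ex vivo level for some members and not for others. Gpr15 had means of 18.9 CPM in vitamin C iTreg cells and 19.0 ± 5.56 CPM (SD, n = 4) in control Treg cells, with overlapping libraries, so these neighbours in the order do not differ beyond their spread. Ccr6 in vitamin C iTreg cells (mean 17.7 CPM) stayed below all control Treg libraries. Ccr9 with RA (mean 387 CPM) or with both supplements (687 CPM) was above every control Treg library. Itgae with both supplements, at a mean of 13.6 CPM, was far below the lowest control Treg library (239 CPM). These orders were not tested.

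Against naive cells, control Treg cells had higher Itgae (9.48 ± 0.24, adjusted p = 7.65e-10, edgeR). The 2 groups also differ in the age and genotype of the mice, which cannot be told apart from the cell type. Ccr6 and Gpr15, with no read in naive libraries, were at least 376-fold and at least 125.7-fold higher, taking a floor of 3 reads over the naive group (adjusted p = 5.31e-09 and 8.8e-05, edgeR). Ccr10 had 1 read in the naive group, a ratio of 158 (28.1 to 6234; adjusted p = 1.44e-05, edgeR). Ccr9, at 15.3, 25.9, 24.7 and 28.0 CPM in control Treg cells, was also higher (0.82 ± 0.24, adjusted p = 0.0176, edgeR), but not without naive replicate 1 (0.137) or 2 (0.0643). Itga4 was at 581, 539, 491 and 570 CPM, a range that overlaps the naive libraries (-0.19 ± 0.08, adjusted p = 0.0646, edgeR), and passed as lower without control library S1 (0.0392). Itgb7 did not pass (0.609). Thus 5 of 7 members were higher, where 54.9% of genes were called (28.6% higher and 26.3% lower). Other homing receptors were higher in 18 of 26 tested and lower in 4 (median 2.44, all genes 0.01).

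**Figure D3:**
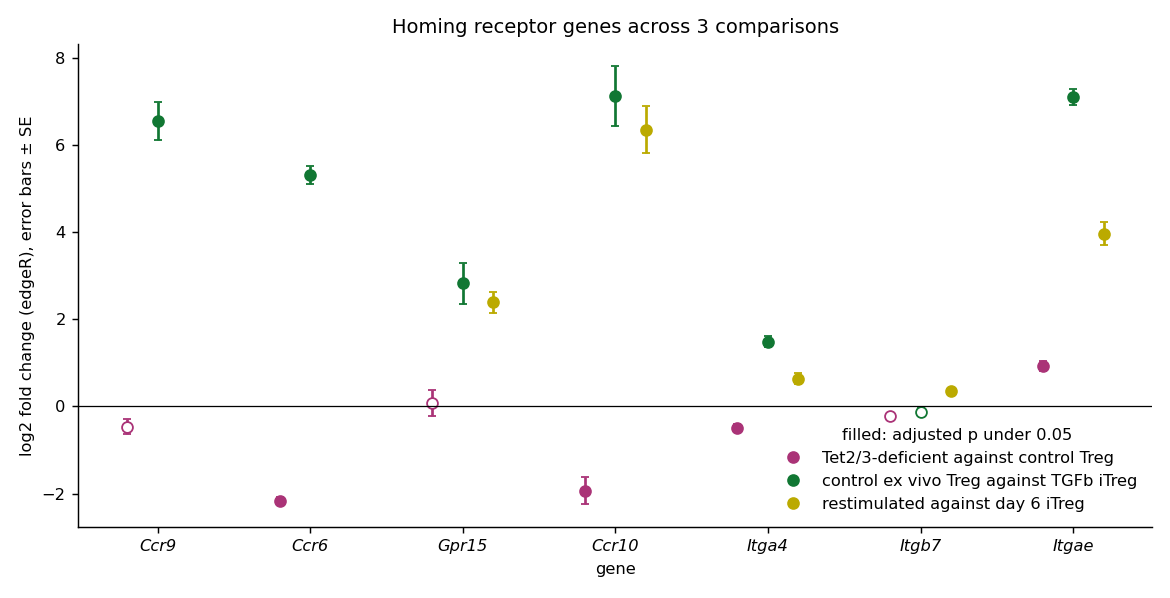
Log2 fold changes with SE (edgeR) for the 7 members in control ex vivo Treg against TGFβ iTreg (n = 4 and 2), Tet2/3-deficient against control Treg (n = 4 and 4) and restimulated Foxp3-negative against day 6 iTreg cells (n = 3 and 3); filled points passed, and Ccr9 and Ccr6 had too few reads for the restimulation test. Itgae lies above 0 in all 3 comparisons (7.12, 0.93 and 3.97), while Ccr10 is high in the first and last (7.14 and 6.36) and lies below 0 with Tet2/3 deficiency (-1.94).

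Tet2/3-deficient Treg cells had less Ccr6, Ccr10 and Itga4 and more Itgae than control Treg cells. Ccr6 was at 13.7, 14.2, 13.1 and 11.5 CPM in the deficient libraries and 63.5, 54.5, 54.0 and 59.2 CPM in controls. The 2 groups lay far apart, and within each the libraries differed little (-2.17 ± 0.09, adjusted p = 3.59e-08, edgeR). Ccr10 was at 1.87, 3.49, 2.04 and 1.14 CPM (25, 56, 36 and 17 reads) against 5.16, 9.87, 9.83 and 7.12 CPM. The groups did not overlap, although both spread widely for their level (-1.94 ± 0.32, adjusted p = 0.00111, edgeR). Cntnap1, a gene that overlaps Ccr10 in the RefSeq annotation, was also lower, at 0.679 to 1.56 CPM against 2.28 to 3.02 CPM. The counting strand is not given in the sources used here, so reads of these 2 genes may not be told apart. Itga4 was at 357, 444, 425 and 366 CPM against 581, 539, 491 and 570 CPM, also without overlap (-0.49 ± 0.08, adjusted p = 0.000751, edgeR).

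Itgae was at 574, 514, 476 and 379 CPM in the deficient libraries and 247, 267, 239 and 239.5 CPM in controls. Every deficient library was higher, and they spread more than the controls (0.93 ± 0.11, adjusted p = 0.000129, edgeR). The overlapping Haspin was at 13.1 to 15.2 CPM against 7.67 to 12.97 CPM, a small level beside that of Itgae. Gpr15 was at 15.5, 25.9, 28.0 and 13.9 CPM against 11.2, 20.4, 24.3 and 20.3 CPM, overlapping ranges (0.09 ± 0.30, 95% interval -0.61 to 0.78, adjusted p = 0.847, edgeR). Ccr9, at 15.6, 20.7, 15.9 and 17.6 CPM against 15.3, 25.9, 24.7 and 28.0 CPM, did not pass (-0.47 ± 0.17, adjusted p = 0.0568, edgeR). Control library S1 was the lowest of the 8, and the other 3 controls lay above every deficient library. Without S1 it passed (-0.63, adjusted p = 0.00144, edgeR), as it did without deficient library S6 (0.0468), with all 20 libraries fitted (0.0176) and with DESeq2 (0.0323). Itgb7, at 832, 1011, 981 and 945 CPM against 981, 1182, 1136 and 990.0 CPM, did not pass either (-0.23 ± 0.08, adjusted p = 0.0546, edgeR) but passed without S1 (0.0286) or S4 (0.0331), with no filter (0.0417), with all 20 libraries (0.0179) and with DESeq2 (0.0408). In all 1 of 7 members rose and 3 fell, where 32.5% of genes were called (16.7% higher and 15.8% lower).

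**Figure D4:**
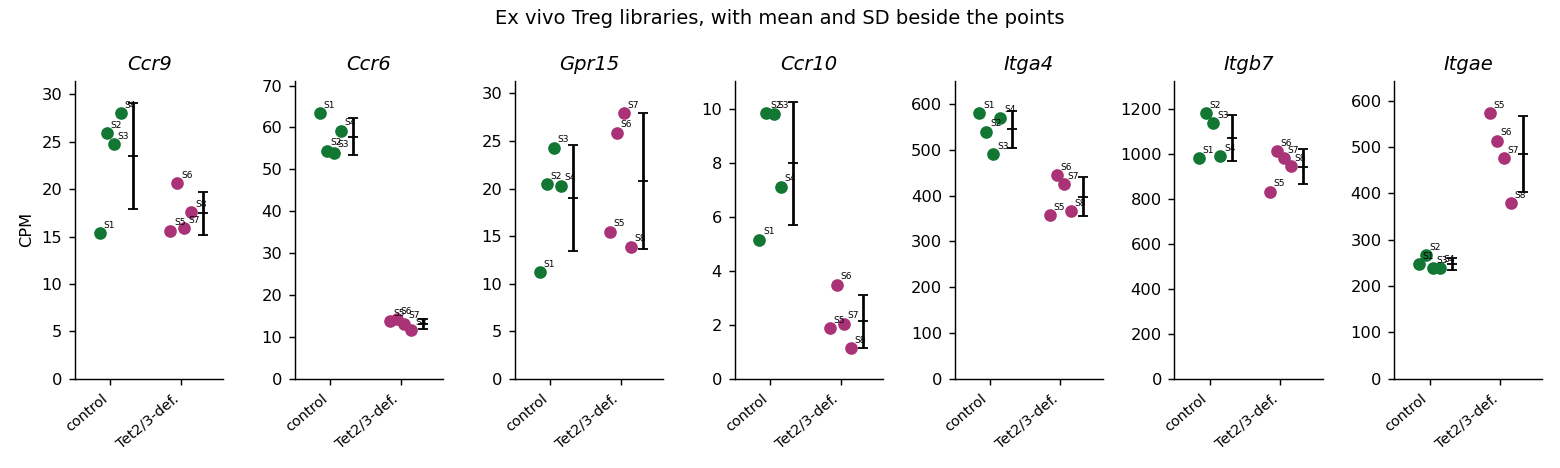
CPM of the 7 members in each ex vivo Treg library (points labelled S1 to S8; linear axes from 0 that differ between panels), with mean and SD beside them. Ccr6, Ccr10, Itga4 and Itgae do not overlap between the groups, while in Ccr9 control library S1 (15.3 CPM) lies below the lowest deficient library (15.6 CPM).

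Of the reported regulators 1 of 27 rose and 19 fell in the deficient cells (median -0.39, all genes about 0). Rora was at 3.73 to 6.79 CPM against 14.3 to 17.3 CPM (-1.61 ± 0.16, adjusted p = 3.35e-05, edgeR). Ccr6 was lower in the same comparison. The values of Rora in the cultures are given above, and no relation between Rora and Ccr6 was tested. Runx2 fell by 1.08 ± 0.17 (0.000802), and the regulator that rose was Runx3 (0.86 ± 0.07, 1.24e-05, edgeR). Runx3 had fallen with RA added to TGFβ, and no relation between Runx3 and Itgae was tested. Among RA response genes 2 of 9 tested rose and 4 fell (median -0.43), with Dhrs3 (-1.27 ± 0.22, adjusted p = 0.00119) and Rarg (-0.84 ± 0.06, 3.52e-06, edgeR), a retinoic acid receptor gene, lower. Among TGFβ response genes 2 of 20 rose and 7 fell (median -0.17). Of 27 other homing receptors 3 rose and 10 fell (median -0.15), with the integrin gene Itga1 up (2.39 ± 0.43, 0.00152) and Itga6 (-1.49 ± 0.11, 4.47e-06) and Cxcr6 (-1.10 ± 0.18, 0.00095) down. Of the members' ligands 5 were tested and 2 rose. Cdh1, the E-cadherin gene, was at 1.61 to 2.55 CPM against 0.172 to 0.326 CPM (2.99 ± 0.30, adjusted p = 3.68e-05, edgeR), and Fn1, the fibronectin gene, rose by 3.77 ± 0.16 (5.16e-08).

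Markers of other cells differed between these groups. The 6 myeloid markers, all detected in both groups, summed to 44.0 to 114 CPM in deficient and 35.2 to 43.7 CPM in control libraries, and the pair of CD8 markers to 3.37 to 5.30 against 24.8 to 28.5 CPM. The 6 B cell markers summed to 47.4 to 64.6 against 45.9 to 111 CPM, the 4 plasma cell markers measured to 5.21 to 9.03 against 2.51 to 5.80 CPM with Tnfrsf17 at 0 in deficient cells, and the 6 dendritic markers to 2.75 to 3.49 against 2.2 to 3.78 CPM. NK and innate lymphoid markers summed to 51.3 to 71.0 against 70.6 to 88.4 CPM, all 5 detected. Of the 4 tested, 2 were higher and 1 lower in deficient cells (median log2 fold change 0.72). The lower sum went with Il1rl1, which had means of 9.52 against 64.2 TMM-scaled CPM. The sums do not show which cells the reads came from, so a lower or higher sum may also lie within the Treg cells. The part of these markers in the receptor results was not tested. Control library S1 had the lowest correlation with its group of the 8 (median 0.986). Leaving out S1 and S3 together, chosen after seeing the data, kept the 4 calls with their signs, and Ccr9 then passed as lower (adjusted p = 0.00261, edgeR).

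Cells sorted as Foxp3-negative after restimulation had more of 5 receptors than day 6 iTreg cells. Itgae was at 0.645, 0.407 and 0.734 CPM at day 6 and 10.2, 7.31 and 11.9 CPM after restimulation. All 3 restimulated libraries were well above all 3 day 6 libraries (3.97 ± 0.27, adjusted p = 5.67e-09, edgeR). Gpr15 went from 5.00, 8.19 and 3.74 CPM to 28.7, 36.6 and 30.1 CPM (2.39 ± 0.25, adjusted p = 0.000115, edgeR), again without overlap. Ccr10 had 2 reads over the day 6 libraries and 73, 71 and 50 reads after restimulation, a CPM ratio of 101 (exact 95% counting interval 27.7 to 843; adjusted p = 7.64e-08, edgeR). Among the cultured groups of both tables, the restimulated one was the only one in which a library had more than 2 reads of Ccr10. Itga4 rose from 141, 129.5 and 151 CPM to 209, 205 and 280.3 CPM (0.64 ± 0.13, adjusted p = 0.00227, edgeR). Itgb7 rose from 1050.5, 1062 and 1094 CPM to 1444, 1413 and 1439 CPM (0.34 ± 0.05, adjusted p = 3.79e-05, edgeR). This was the largest Itgb7 level of the 10 groups, though the tables are separate.

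Ccr6 and Ccr9 had too few reads to enter that test. Ccr6 was counted at 11, 11 and 20 reads at day 6 and 7, 7 and 1 after restimulation, so that the CPM did not overlap. With no filter on low counts Ccr6 passed as lower (-1.46 ± 0.50, adjusted p = 0.0127, edgeR) and Ccr9, with 4 and 8 reads in all, did not pass (0.416). Thus 5 of 5 members tested rose, where 68.8% of genes were called (33.6% higher and 35.2% lower). Of 26 regulators tested 22 rose and 3 fell (median 0.67, all genes -0.01), with Tbx21, the T-bet gene of Th1 cells, up by 6.02 ± 0.22 (adjusted p = 4.87e-12, edgeR) and Runx2 by 3.19 ± 0.15 (7.24e-11). Other homing receptors rose in 15 of 23 and fell in 5 (median 0.71), led by Cxcr3 (7.91 ± 0.13, 1.37e-15) and Cxcr6 (7.18 ± 0.14, 1.29e-14), receptors of inflamed tissue. Cdh1 rose by 3.81 ± 0.16 (3.31e-10, edgeR), the one member ligand of 3 tested to do so. B cell markers summed to 1.42 to 2.58 CPM after restimulation and 2.61 to 3.54 CPM at day 6, with Ms4a1 and Pax5 at 0. The 4 plasma cell markers measured summed to 0.0885 to 0.441 and 0.465 to 1.13 CPM. NK and innate lymphoid markers summed to 32.4 to 36.9 and 15.3 to 18.6 CPM with Ncr1 at 0, and their part was not tested. The groups differ in Foxp3 sorting, in restimulation and in time in culture, which cannot be told apart.

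Since α4β7 needs both chains, the ratio of Itgb7 to Itga4 FPKM was taken in each library. It was 7.51 and 8.40 in naive cells, 31.2 and 31.0 in Th0 cells and 25.8 and 32.9 in TGFβ iTreg cells. Each supplement went with a lower ratio, of 12.6 and 15.4 with vitamin C, 10.1 and 14.4 with RA, and 7.27 and 9.77 with both. Transcripts of the β7 chain thus exceeded those of α4 in every library, and the ratio moved with Itga4. The size of the ratio depends on the listed exon lengths, of 2674 bases for Itgb7 and 12895 for Itga4. In ex vivo Treg cells the ratio was 9.56 ± 1.53 in controls and 11.4 ± 0.679 in deficient cells (SD, n = 4 each; exact permutation test, 2-sided, p = 0.08571, where 0.02857 is the smallest possible). It was 36.8 ± 2.45 at day 6 and 30.4 ± 4.92 after restimulation (SD, n = 3 each, not tested).

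**Figure D5:**
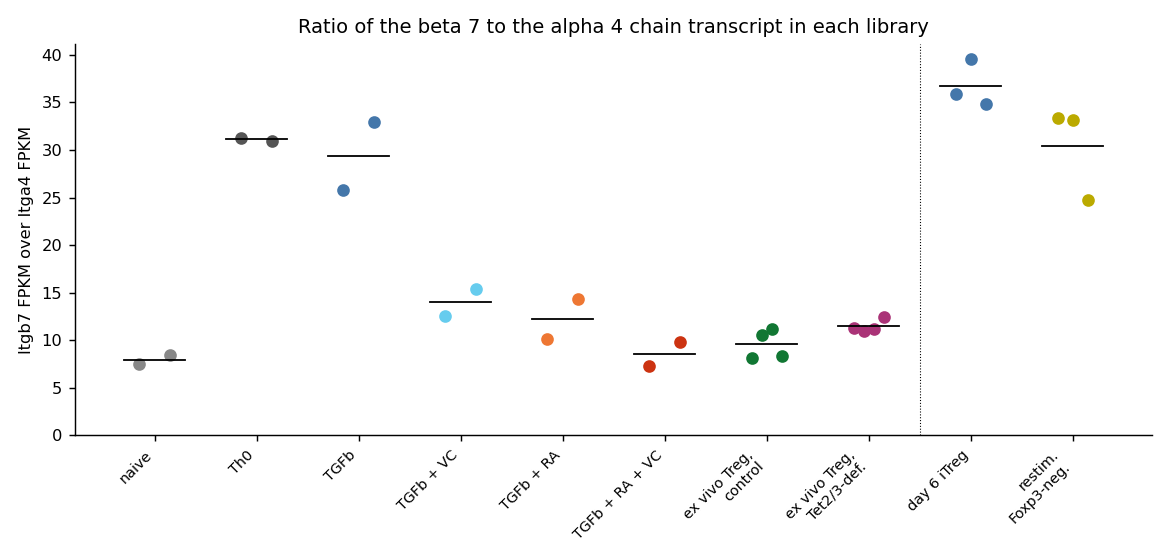
Ratio of Itgb7 to Itga4 FPKM in each library (points) with group means (bars), on a linear axis from 0, the restimulation table to the right of the dotted line. Th0 and TGFβ iTreg libraries lie at 25.8 to 32.9, and all libraries with vitamin C or RA at 7.27 to 15.4.

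The genes whose group means followed each member most closely were found over the 8 groups of the first table among 9623 genes, by Pearson correlation of log2(TMM-scaled CPM + 1). The groups share libraries across genes and each best match is the highest of 9623, so these are descriptions. Ccr9 was followed best by Pik3c2b (0.96), Enpp4 and Gm14085, Ccr6 by Wdr59 (0.98), Apeh and Ntng2, and Gpr15 by Zbtb32 (0.97), Rab19 and Ptger4. Itga4 went with Ppp1r21 (0.99), Zfp182 and Tef, and Itgb7 with Stk40 (0.97), Il18r1 and Tcf4. Itgae went with Gm14288 (0.98), Col15a1 and Cmtm3, and Ccr10 with Il1rl1 (0.99), Actg2 and Klrg1. No member was among the 3 best matches of another, and the correlation of Ccr6 with Gpr15 was 0.80 against -0.29 for Ccr9 with Gpr15.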

How the data were processed

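RNA was purified with RNeasy plus kits and sequenced from TruSeq stranded mRNA libraries, per the labels' protocols. The authors deposited read counts per gene in 2 tables, of 20 and 6 libraries, and FPKM values of the same libraries made with the exon lengths that those tables list, per the file headers. Per the submitters' processing notes, reads were handled against build mm9, with TopHat2 2.1.1 as the aligner named, and the notes also name Picard 2.5.0, SAMtools 1.7, bcl2fastq 2.20.0.442 and Trim Galore 0.4.2, as well as edgeR 3.26.6 under R 3.6.1. The counting tool, its annotation and its strand setting are not given in the sources used here.

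From the counts, CPM were computed with each library's total, while FPKM were used as deposited. The test was edgeR 4.0.16 (R 4.3.3): TMM factors, filterByExpr, a robust quasi-likelihood fit and Benjamini-Hochberg adjustment over all genes tested, with 0.05 as the threshold. The 7 members were tested in 13 comparisons. Naive and cultured groups of the first table shared one fit of 12 libraries, so the comparisons among them share control libraries; every other fit held only the groups compared, and the 2 tables were never pooled. The script was tested on simulated data. Genes were matched by Entrez ID, since 361 IDs carry different symbols in the 2 tables. A total of 92 rows had no symbol.

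A gene with no read in a group was set to a floor of 3 reads over that group. Confidence intervals of ratios are exact 95% intervals that cover counting error only, as do floors. Alternatives were DESeq2 1.42.0, RLE factors, no filter, limma 3.58.1 on log2(FPKM + 1) or log2(FPKM + 0.1), blocking on the replicate number, fits over more or fewer libraries, and fits without 1 replicate at a time. The members, gene lists and tests were chosen with earlier results of these data known. List genes named are those with the largest changes among those that passed; Runx3, and Rora with vitamin C, with both supplements and after restimulation, were named after their values were seen. Some list genes are not reported here. Promoters came from RefSeq (GRCm38.p6), a build other than that of the counts, and Itgae and Ccr10 had no match. Likeness was taken on TMM-scaled CPM of genes with a mean over groups of at least 5 CPM, and members were kept whatever their mean. Ccr10 entered with a mean of 1.29 CPM.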

Additional observations from a re-analysis of the deposited data

How the results depend on the processing

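Over 945 recomputed values of single members, 903 kept their side of the threshold, 25 no longer passed and 17 newly passed. Of these values 0 changed sign where the main or the recomputed value passed. Changes of sign between values that both did not pass were not counted. Leaving out each replicate gave 2 to 4 members called for RA added to TGFβ. With limma on log2(FPKM + 1) the interaction called 1 member. A replicate block gave 5 members called for RA added to vitamin C cultures and 5 for TGFβ iTreg against Th0, because Itga4 (adjusted p = 0.00237 and 0.0495) and Itgb7 (0.0264 and 0.0428) then passed, and Itga4 passed for vitamin C added to RA (0.0132, edgeR). The replicate numbers were not taken to pair the libraries, since the labels do not say what a number stands for. Without the block, any effect shared by a number is counted as spread between libraries. Not passing in such a fit is thus not evidence of no change. Same-number correlations were all positive, from 0.0133 to 0.418 over 30 pairs of the first table, 12 of them over 0.1. Over 3 pairs of the second table they were from 0.0778 to 0.197. The 2 libraries of a group mirror each other there in the first table, where naive 1 gave 0.0718 with RA 1 and -0.0718 with RA 2. Each value thus occurs at both replicate numbers among the 30 pairs, and a positive one is always the best match. That 12 of 12 of these libraries correlated best with their own number only repeats that all values were positive. After restimulation and at day 6, with 3 libraries per group, 6 of 6 did so, a hint of pairing from the data and not the design. No paired analysis was possible for the ex vivo libraries because their column numbers match no single title. Where leaving out a replicate left 1 library in a group, it was assumed to vary like the other groups.

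Over all genes, vitamin C added to RA called 851 genes, 1363 with the replicate block and 487 with only the groups compared in the fit. The interaction called 2 genes, 17 with DESeq2, 25 with no filter, 23 and 8 with limma at the larger and smaller pseudocount, and 26 with the block. With limma at the larger and smaller pseudocount the share of calls that were higher was 62.7% and 62.8% in deficient Treg cells, against 51.4%, and 66.04% and 66.9% in control Treg against naive cells, against 52.1%, where the median of all genes shifted by 0.13 and 0.14. With only the groups compared in the fit it was 68.9% for vitamin C against RA iTreg cells, against 57.2%. Depth limits Ccr10 in naive and cultured cells, Ccr9 without RA and Gpr15 with RA, which rest on a few reads. The groups of 2 libraries give wide intervals for them.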

Other observations

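Cdh1, which encodes E-cadherin, the ligand of the αEβ7 integrin, was itself transcribed in the T cell cultures. It was at 1.05 and 1.64 CPM with TGFβ alone, 4.72 and 9.14 CPM with vitamin C, 5.21 and 6.52 CPM with RA and 25.7 and 31.96 CPM with both supplements (lowest and highest library of each pair). Each supplement raised it over TGFβ alone, by 2.33 ± 0.36 for vitamin C (adjusted p = 0.000629, edgeR) and 2.1 ± 0.37 for RA (0.00118), and both together by 4.37 ± 0.31 (1.03e-07). In the ex vivo Treg cells it was higher in the deficient group, in which Itgae was also higher, although its level there was at most 2.55 CPM. The list to which Cdh1 belongs was chosen with earlier results of these data known.

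In the 14 sets of 4 ex vivo libraries (7 members in each of the 2 groups), the gap of the highest or lowest library passed Dixon's critical value of 0.829 in 0.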
